A study of Mus musculus with 27 samples.

Results

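The genes described here encode the enzymes that break down stored triglyceride in fat cells and the proteins that switch those enzymes on and off. A total of 9 genes were listed: Pnpla2, Pnpla3, Lipe, Mgll, Abhd5, G0s2, Pde3b, Prkar2b and Prkaca. A gene was followed where a probe set was annotated to its symbol alone, and where there were several, the one brightest on average across the 27 arrays was used. This gave 8 of 18781 genes measured. Prkaca, the catalytic subunit of protein kinase A, had no probe set of its own, since its probe set also reads Samd1, and it was not analysed here. The cells were mature 3T3-L1 adipocytes, which are fat cells made in culture from a mouse preadipocyte line with dexamethasone, insulin and isobutylmethylxanthine, followed by insulin and then growth medium. The groups were 3 arrays of untreated cells at time 0 and 3 arrays at each of 8 times (30 min, then 1, 2, 6, 12, 24, 36 and 48 h) after 1 µM rosiglitazone in DMSO, a drug that activates the nuclear receptor PPARγ. The untreated arrays were the control for every time, so the 8 comparisons share them, and time in culture and DMSO cannot be told apart from the drug.

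In fat cells, catecholamines raise cAMP through Gs-coupled receptors, and cAMP releases the catalytic subunits of protein kinase A. The kinase phosphorylates perilipin on the lipid droplet and hormone-sensitive lipase. Adipose triglyceride lipase (ATGL, gene Pnpla2) removes the first fatty acid, hormone-sensitive lipase (Lipe) the next, and monoglyceride lipase (Mgll) the last. ABHD5, also called CGI-58, activates ATGL, and G0S2 binds and inhibits it. Insulin opposes the pathway through phosphodiesterase 3B (Pde3b), which breaks down cAMP.

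The DNA just upstream of a gene is where much of its regulation is read, so the 250 bases before the RefSeq start (build GRCm38.p6) are shown for ATGL, for its inhibitor and activator, which were higher in mid-course, and for Pnpla3, which was lower. They lie at chr7:141454938-141455187, plus strand (Pnpla2), chr1:193273189-193273438, minus strand (G0s2), chr9:122351366-122351615, plus strand (Abhd5) and chr15:84167566-84167815, plus strand (Pnpla3). Each is written 5′ to 3′ on the gene's strand. Capitals mark matches, on either strand, to the motifs searched.
Pnpla2: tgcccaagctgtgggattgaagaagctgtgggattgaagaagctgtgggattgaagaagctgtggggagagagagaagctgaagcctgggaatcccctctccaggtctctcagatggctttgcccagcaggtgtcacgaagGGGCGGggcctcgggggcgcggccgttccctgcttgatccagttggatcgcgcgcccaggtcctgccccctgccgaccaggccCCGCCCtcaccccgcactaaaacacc
G0s2: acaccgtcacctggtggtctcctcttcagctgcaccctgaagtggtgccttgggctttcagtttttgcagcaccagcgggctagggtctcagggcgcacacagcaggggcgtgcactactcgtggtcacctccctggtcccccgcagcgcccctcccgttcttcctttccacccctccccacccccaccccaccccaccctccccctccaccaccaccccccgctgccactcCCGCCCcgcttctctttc
Abhd5: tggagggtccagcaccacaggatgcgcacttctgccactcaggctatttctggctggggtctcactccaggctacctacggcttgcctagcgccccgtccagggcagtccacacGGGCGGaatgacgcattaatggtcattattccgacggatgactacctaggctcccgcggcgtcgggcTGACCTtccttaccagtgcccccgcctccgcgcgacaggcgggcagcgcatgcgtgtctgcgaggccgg
Pnpla3: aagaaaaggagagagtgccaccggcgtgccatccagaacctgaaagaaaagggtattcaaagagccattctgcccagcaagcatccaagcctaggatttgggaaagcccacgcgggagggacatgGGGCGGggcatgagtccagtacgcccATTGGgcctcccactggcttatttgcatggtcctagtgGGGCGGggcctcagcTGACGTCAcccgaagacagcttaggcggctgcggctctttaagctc

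One motif was the nuclear receptor hexamer AGGTCA, searched also as a direct repeat with 1 base between, the layout that PPARγ and RXR bind. The cAMP response element was searched as TGACGTCA. The E-box, a site of basic helix-loop-helix factors, was searched as CACGTG. The GC box, which Sp1 binds, was searched as GGGCGG. The TATA box, which places the start of transcription, was searched as TATAAA. The CCAAT box, a site of factor NF-Y, was searched by those letters. In the sequences above, the Abhd5 window held the hexamer on the minus strand from base -69 to -64 before the start, as did 14.0% of all 32851 RefSeq windows of this length. The table held 12 windows for 8 of the 9 listed genes, Prkaca included, and Pde3b was not searched. The repeat was in 0 of these 12 windows and in 0.0335% of all windows. The Pnpla3 window held the cAMP response element from -46 to -39, a motif in 1.55% of all windows. A GC box lay in 8 of the 12 windows, beside 32.7% of all, and an E-box in 4, beside 6.02%. The TATA box was in 0 of the 12, beside 12.4%, and the CCAAT box in 2, beside 33.8%. Some genes have several starts among these windows, and a match describes letters, not binding.

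Expression was read as log2 intensity per probe set, with array medians from 4.02 to 4.13. Levels of different genes are not compared, since each probe set has its own brightness. Changes are log2 differences from untreated ± SE (n = 3 arrays per group), and the words rose and fell are kept for a limma p, adjusted over all genes, below 0.05. The labels do not say whether arrays of a group came from separate cultures, so the error behind each p-value may be technical only. Within a group, an array's mean correlation with the other two ran from 0.9958 to 0.9984, and the lowest was the 36 h replicate 1. The 10 adipocyte markers, all measured, averaged 10.85 to 10.96 on the untreated arrays and 10.61 to 10.79 at 48 h. Lep, the leptin gene, fell by 1.73 at 48 h, Pparg by 0.30 and Retn by 0.20, Cd36 rose by 0.43, and the other 6 were not called (adjusted p = 4.37e-06, 5.55e-05, 0.00979 and 0.000256 for the 4 called). The 5 brown fat markers averaged 5.04 to 5.34 and then 6.19 to 6.51: Cidea rose by 2.49, Elovl3 by 2.33 and Cox8b by 0.83 (adjusted p = 2.55e-13, 4.88e-08 and 2.35e-08), while Ucp1 stayed between group means of 2.70 and 2.88. The 7 macrophage markers averaged 3.82 to 3.89 on the untreated arrays and 3.59 to 3.75 at 48 h, and the 5 endothelial markers 3.11 to 3.24 and 3.16 to 3.24. The 6 measured of 8 fibroblast and preadipocyte markers averaged 9.01 to 9.02 on the untreated arrays and 8.59 to 8.66 at 48 h. The part of these marker shifts in the results was not tested. Fewer cells of a type and less RNA per cell cannot be told apart in these bulk samples.

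Over the course, 7 of the 8 genes changed by the limma F-test, beside 40.5% of all genes, and Lipe did not pass (adjusted p = 0.21). No gene of the group passed at 30 min or at 1 h, when 0.0479% and 0.99% of all genes were called, and 1 gene had an unadjusted p below 0.05 at each time. The first to pass was Pnpla3, alone at 2 h (1 of 8, beside 5.91% of all genes). After 6 h, 5 of 8 had changed (16.6% of all genes). The count was 6 after 12 h (18.9%) and 7 after 24 h (20.7%). It was 4 after 36 h (21.4%) and 2 after 48 h (24.0%). All 8 probe sets lay above the median gene mean, where calls are more frequent. Among the 9390 genes above that median, tested alone, the shares called at 6, 12, 24, 36 and 48 h were 35.9%, 38.1%, 41.7%, 41.3% and 44.8%, and the F-test called 72.1%. The 2 of 8 genes called at 48 h were thus near the share of all genes. These member counts come from the test over all genes, and the shares of the brighter genes from a test of those alone. In the latter test, Abhd5 was also called at 6 h, Prkar2b at 36 h and Pnpla2 at 48 h. Pnpla3 was the only member that fell at any of these times, and every other call was an increase. All called changes lay between -0.52 and 0.52 on the log2 scale.

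**Figure D1:**
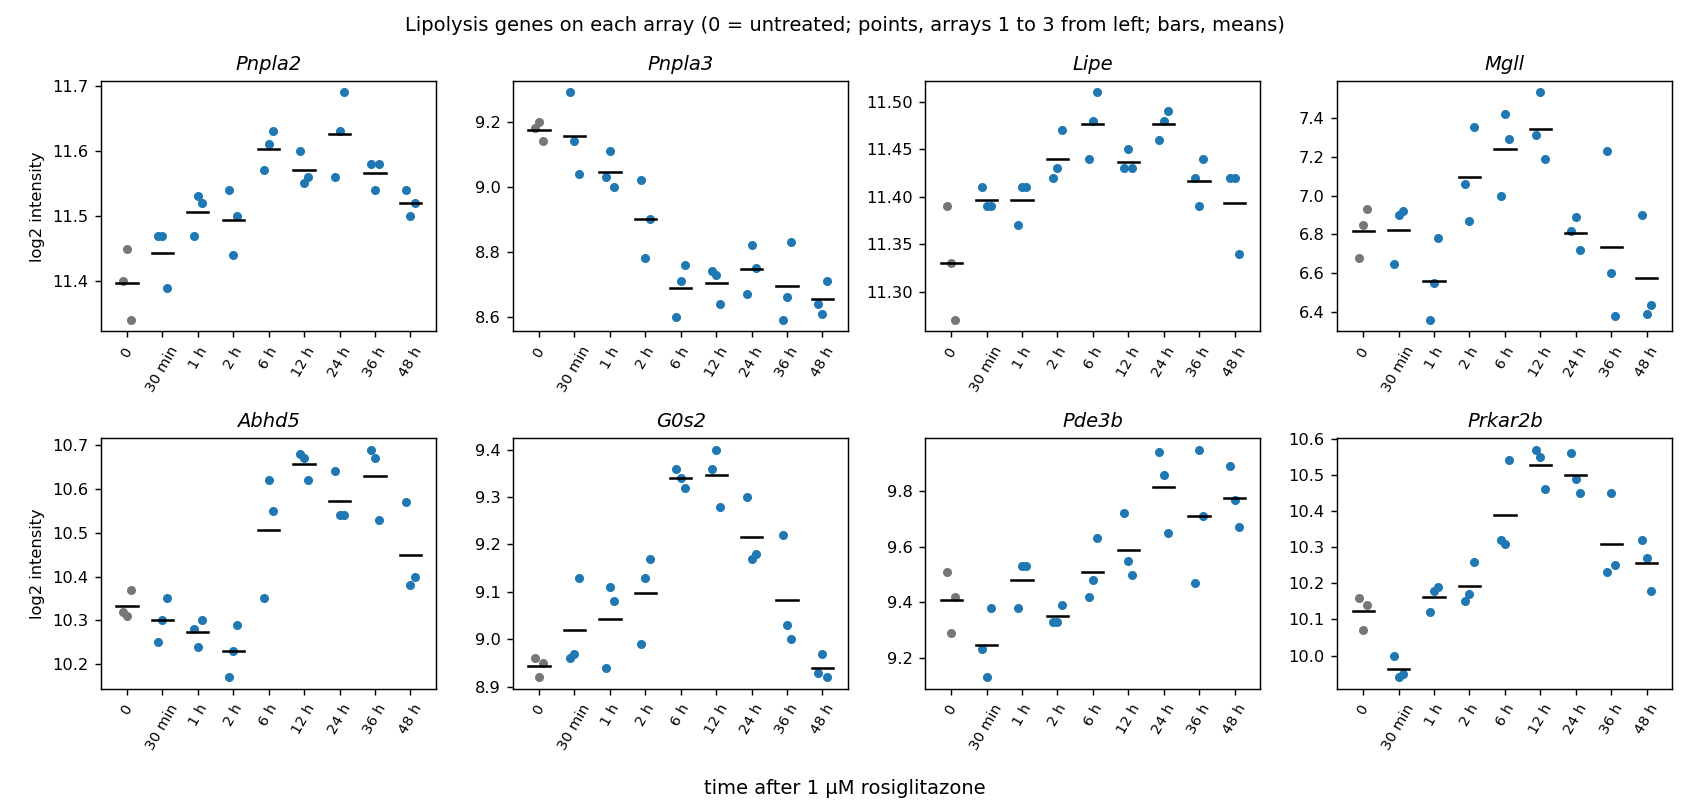
Log2 intensity of the 8 genes on each array (points, arrays 1 to 3 from left; bars, group means) by time after 1 µM rosiglitazone, with times equally spaced and each panel on its own scale. Pnpla3 steps down by 6 h and stays between 8.59 and 8.83, while G0s2 climbs to 9.28 to 9.40 at 12 h and is back at 8.92 to 8.97 at 48 h.

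Pnpla2, which encodes ATGL, was slightly higher from 6 h to 36 h. Its untreated arrays read 11.40, 11.45 and 11.34, and the arrays read 11.57, 11.61 and 11.63 at 6 h, 11.56, 11.63 and 11.69 at 24 h, and 11.54, 11.50 and 11.52 at 48 h. All arrays at these 3 times lay above all untreated ones. Pnpla2 rose by 0.21 at 6 h, 0.17 at 12 h, 0.23 at 24 h and by 0.17 again at 36 h, each ± 0.052, with adjusted p-values of 0.00672, 0.0207, 0.00183 and 0.0204. The 24 h value is a 1.17-fold increase, with a 95% interval of 0.12 to 0.34 on the log2 scale. At 48 h the difference was 0.12 ± 0.052, which was not called (adjusted p = 0.10). It was called without dim genes, with centring, with quantile normalization and with trended variance (0.121 to 0.166, adjusted p = 0.0406, 0.0454, 0.0315 and 0.0228, and up to 0.463 over the alternatives). The 12 h call ended without the untreated replicate 3 or the 12 h replicate 1, and the 36 h call without the untreated replicate 3 or the 36 h replicate 1 or 3. Over all alternatives the adjusted p lay between 0.0016 and 0.222 (12 h) and between 0.00158 and 0.274 (36 h), with changes of 0.126 to 0.232 and 0.123 to 0.249.

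Lipe, which encodes hormone-sensitive lipase, moved little. Its arrays read 11.39, 11.33 and 11.27 untreated, 11.44, 11.48 and 11.51 at 6 h, 11.46, 11.48 and 11.49 at 24 h, and 11.42, 11.42 and 11.34 at 48 h. The 6 h and 24 h arrays lay above the untreated ones, and the 48 h arrays overlapped them. Lipe rose by 0.15 ± 0.049 at both 6 h and 24 h (adjusted p = 0.0358 and 0.0334), while 0.11 ± 0.049 at 12 h was not called (adjusted p = 0.14). Both calls ended under many alternatives. They ended without the untreated replicate 2 or 3, without the 6 h replicate 2 or 3 and without any 1 of the 24 h arrays, and the adjusted p lay between 0.00291 and 0.522 (6 h) and between 0.00268 and 0.696 (24 h). A second Lipe probe set, with group means of 7.41 to 7.56, gave 0.116 and 0.0759 at these times (adjusted p = 0.522 and 0.696).

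Mgll, which encodes the lipase of the last step, was the most variable member, with a pooled SD of 0.235 within groups against 0.031 to 0.13 for the others. The untreated arrays read 6.68, 6.85 and 6.93, the 12 h arrays 7.31, 7.53 and 7.19, and the 24 h arrays 6.82, 6.89 and 6.72. The 12 h arrays were all above the untreated ones, and the 24 h arrays overlapped them. At 6 h the arrays read 7.00, 7.42 and 7.29, all above the untreated ones, and the difference of 0.42 ± 0.17 did not pass (adjusted p = 0.101), although it was called with centring, with only the 6 arrays compared and without replicate 1 of every group (adjusted p = 0.0475, 0.0162 and 0.0442, and up to 0.441 over the alternatives). Mgll rose at 12 h by 0.52 ± 0.17 (1.44-fold, 95% interval 0.17 to 0.87, adjusted p = 0.0303). That call ended without the untreated replicate 1 or 2 or the 12 h replicate 1 or 2 (0.454, 0.541, 0.54 and 0.43), and the adjusted p over all alternatives ran from 0.00305 to 0.262. At 36 h the arrays were scattered, at 7.23, 6.60 and 6.38, and the difference was called with array weights alone (-0.38, adjusted p = 0.0332, and up to 0.997 over the alternatives). At 48 h they read 6.90, 6.39 and 6.44, and the difference, -0.25 ± 0.17, was not called (adjusted p = 0.338). Without replicate 1 of every group it was -0.478, the lowest of the alternatives, which gave an adjusted p of 0.0262 to 0.768.

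Pnpla3 encodes a relative of ATGL that sits on lipid droplets, can bind ABHD5, and is best known for its role in liver fat. Though Mgll also had differences below 0 from 24 h to 48 h, none of them called, Pnpla3 was the only member called lower than untreated. The untreated arrays read 9.18, 9.20 and 9.14, the 2 h arrays 9.02, 8.78 and 8.90, the 6 h arrays 8.60, 8.71 and 8.76, and the 48 h arrays 8.64, 8.61 and 8.71. The arrays at each of these times lay below all untreated ones. Pnpla3 fell by 0.27 in log2 units at 2 h, by 0.48 at 6 h, by 0.43 at 24 h and by 0.52 at 48 h (SE 0.075), with adjusted p-values of 0.0286, 4.66e-05, 0.000111 and 8.38e-06. The 48 h level was 0.70 times the untreated one, with a 95% interval of -0.67 to -0.36. The calls from 6 h to 48 h held under every alternative run. The 2 h call ended without any 1 of the untreated arrays, without the 2 h replicate 2 or 3, and with the replicate number as a block or arrays centred on their median. Its change then ran between -0.332 and -0.196, and its adjusted p between 0.00873 and 0.482, over all alternatives.

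**Figure D2:**
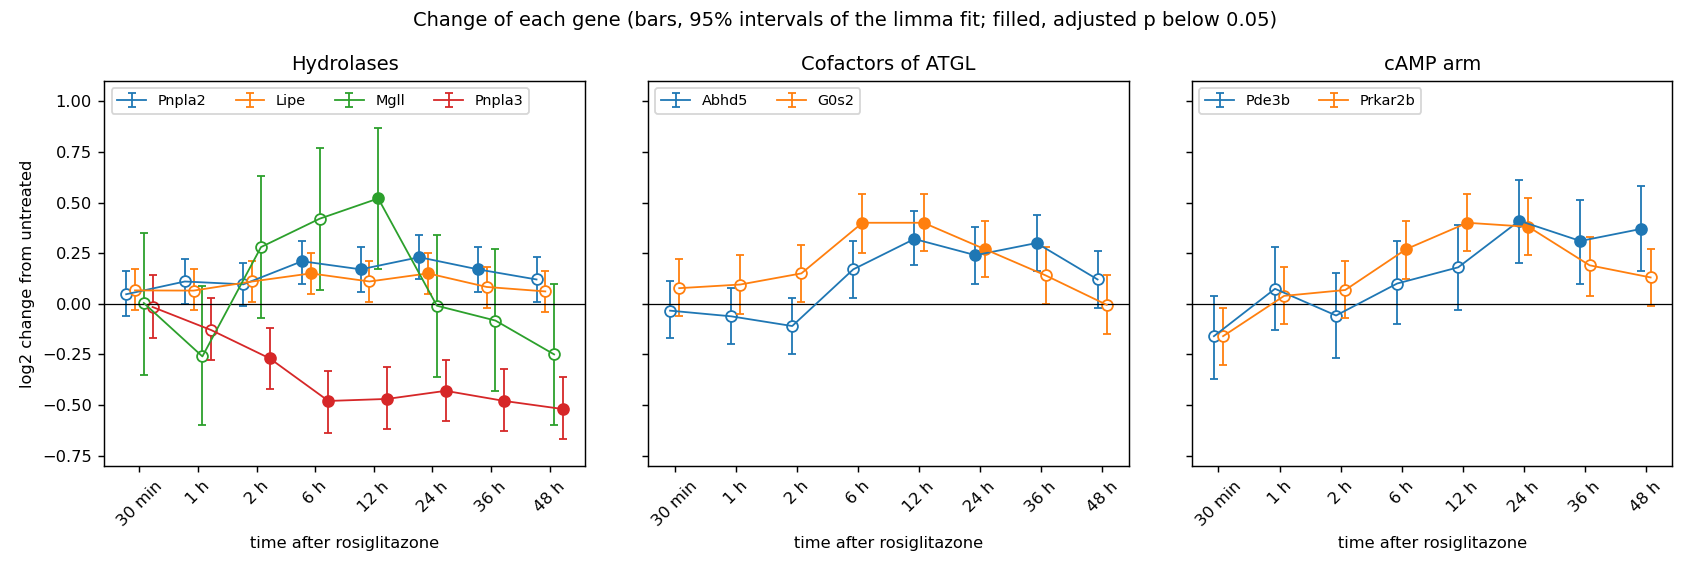
Log2 change from untreated for each gene (points; bars, 95% intervals of the limma fit, n = 3 arrays per group) by time, with times equally spaced and filled points where the adjusted p was below 0.05. Pnpla3 is the only gene below 0 with filled points, at -0.27 at 2 h and -0.52 at 48 h, and the filled points of G0s2, Prkar2b and Mgll end by 24 h.

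The cofactors of ATGL, an activator and an inhibitor, were both higher in mid-course. G0s2, the inhibitor, read 8.96, 8.92 and 8.95 on the untreated arrays, 9.36, 9.34 and 9.32 at 6 h, 9.36, 9.40 and 9.28 at 12 h, 9.30, 9.17 and 9.18 at 24 h, and 8.93, 8.97 and 8.92 at 48 h. The groups from 6 h to 24 h lay wholly above the untreated arrays, and the 48 h arrays overlapped them. G0s2 rose by 0.40 ± 0.068 at both 6 h and 12 h (adjusted p = 0.00016 and 0.00011) and then by 0.27 ± 0.068 at 24 h (adjusted p = 0.00449). The 12 h value is a 1.32-fold increase, with a 95% interval of 0.26 to 0.54. At 36 h, when replicate 1 read 9.22 and the others 9.03 and 9.0, the difference of 0.14 ± 0.068 was not called (adjusted p = 0.16). At 48 h it was -0.0053, with an interval of -0.15 to 0.14 (adjusted p = 0.971). The 6 h and 12 h calls held under every alternative run.

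Abhd5, the activator, read 10.32, 10.31 and 10.37 untreated, 10.17, 10.23 and 10.29 at 2 h, 10.35, 10.62 and 10.55 at 6 h, 10.68, 10.67 and 10.62 at 12 h, and 10.57, 10.38 and 10.40 at 48 h. The 2 h arrays lay below the untreated ones, the 12 h arrays above them, and the 6 h replicate 1 stood at the untreated level. Abhd5 rose by 0.32, 0.24 and 0.30 (each ± 0.068) at 12, 24 and 36 h, with adjusted p-values of 0.00101, 0.0113 and 0.00185, and the first is a 1.25-fold increase. The differences of 0.17 (6 h) and 0.12 (48 h), each ± 0.068, did not pass (adjusted p = 0.089 and 0.235). Without the 6 h replicate 1 the 6 h value was 0.248 and was called (adjusted p = 0.0161, and 0.0161 to 0.599 over the alternatives). Without the 24 h replicate 1 the 24 h call ended (0.209, adjusted p = 0.0659, and 0.00244 to 0.116 over the alternatives).

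The changes of inhibitor and enzyme were set beside each other on the same arrays. The change of G0s2 minus that of Pnpla2 was 0.19 ± 0.06 (SD, n = 3) at 6 h and 0.23 ± 0.06 at 12 h, with every array above the untreated range of -0.08 to 0.07. At 24 h it was 0.04 ± 0.13, and at 48 h it was -0.13 ± 0.04. The SD leaves out the error of the untreated means, and probe sets of unlike brightness may not respond alike. These differences are given as a description, with no test, and a change in mRNA is not a change in protein or in lipase activity.

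**Figure D3:**
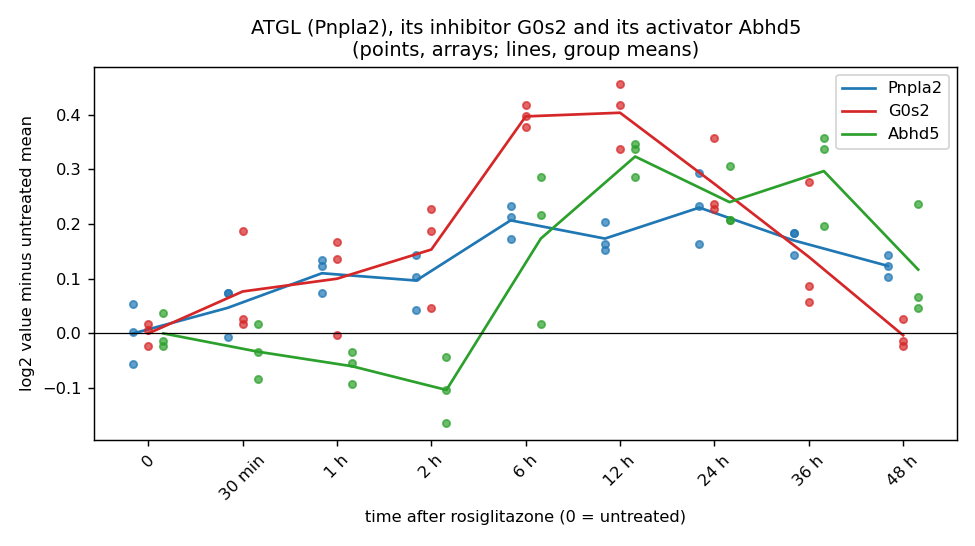
Log2 value minus the untreated mean for Pnpla2, G0s2 and Abhd5 on each array (points) with group means (lines), by time after rosiglitazone with times equally spaced. G0s2 is highest at 6 h and 12 h, at a mean change of 0.40, Abhd5 at 12 h, at 0.32, and all 3 are lower at 48 h than at 24 h, a step that passed the test for G0s2 alone.

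In the cAMP arm, Pde3b rose late and Prkar2b in mid-course. Pde3b, the phosphodiesterase through which insulin restrains lipolysis, read 9.51, 9.29 and 9.42 untreated, 9.94, 9.86 and 9.65 at 24 h, 9.47, 9.95 and 9.71 at 36 h, and 9.89, 9.77 and 9.67 at 48 h. The 24 h and 48 h arrays lay above the untreated ones, while the 36 h replicate 1 fell among them. Pde3b rose by 0.41, 0.31 and 0.37 (each ± 0.10) at 24, 36 and 48 h, with adjusted p-values of 0.00404, 0.0302 and 0.00781, and the first is a 1.33-fold increase. Earlier, the differences of 0.10 ± 0.10 (6 h) and 0.18 ± 0.10 (12 h) did not pass, with adjusted p-values of 0.583 and 0.251. Without the untreated replicate 2 the 48 h value was 0.314 (adjusted p = 0.0522, and 0.000228 to 0.106 over the alternatives). The 36 h call ended without the untreated replicate 2 or 3 or the 36 h replicate 2 or 3, with values of 0.249, 0.311, 0.186 and 0.306 (adjusted p 0.00102 to 0.566 over the alternatives).

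Prkar2b encodes the RIIβ subunit, the main regulatory subunit of protein kinase A in fat. Its arrays read 10.16, 10.07 and 10.14 untreated, 10.00, 9.94 and 9.95 at 30 min, 10.57, 10.55 and 10.46 at 12 h, 10.56, 10.49 and 10.45 at 24 h, and 10.32, 10.27 and 10.18 at 48 h. The 30 min arrays lay below all untreated ones (-0.16 ± 0.069), yet this was not called (adjusted p = 0.584). Prkar2b rose by 0.27, 0.40 and 0.38 (each ± 0.069) at 6, 12 and 24 h, with adjusted p-values of 0.00748, 0.000113 and 0.000184, and the 12 h value is a 1.32-fold increase. The later values of 0.19 (36 h) and 0.13 (48 h), each ± 0.069, were not called (adjusted p = 0.0546 and 0.184), although the arrays still lay above the untreated ones. Without the 6 h replicate 3, which read 10.54 against 10.32 and 10.31, the 6 h value was 0.189 (adjusted p = 0.0799, and 6.66e-05 to 0.177 over the alternatives). Without the 36 h replicate 1 the 36 h value was called (0.228, adjusted p = 0.0316, and 0.000406 to 0.592 over the alternatives). It was also called without dim genes, with centring, with trended variance, with array weights and with the 30 min baseline.

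Comparisons between exposure times, which do not use the untreated arrays, were made as well. From 2 h to 6 h, 2 of 8 genes changed (9.16% of all genes): Abhd5 rose by 0.28 ± 0.068 (adjusted p = 0.00883) and G0s2 by 0.25 ± 0.068 (adjusted p = 0.0212). Each call ended when some single arrays were left out, which also raised the SE from 0.068 to between 0.073 and 0.078. That of Abhd5 ended without the 2 h replicate 1 or the 6 h replicate 2 (0.246 and 0.222), and that of G0s2 without the 2 h replicate 1 or the 6 h replicate 1 or 2 (0.194, 0.234 and 0.247). From 6 h to 24 h limma called 0 of 8 (11.5% of all genes), and 2 had an unadjusted p below 0.05. Pde3b was nearest, at 0.30 ± 0.10 (adjusted p = 0.0503), and it was called without the 6 h replicate 3 (0.363) or the 24 h replicate 3 (0.386).

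From 24 h to 48 h, 1 of 8 genes changed (1.46% of all genes). The inhibitor gene G0s2 fell by 0.28 with an SE of 0.068 (adjusted p = 0.0369), and all 8 genes had a difference below 0. That call ended without any 1 of the 6 arrays compared (-0.299 to -0.235), and the adjusted p ran from 0.0157 to 0.257 over the alternatives. Prkar2b came next, at -0.25 ± 0.069 (adjusted p = 0.0702). From 2 h to 48 h, 4 of 8 changed (23.7% of all genes). Pde3b rose by 0.43 ± 0.10 (adjusted p = 0.00231) and Abhd5 by 0.22 ± 0.068 (adjusted p = 0.0166), while Mgll fell by 0.52 (SE 0.17, adjusted p = 0.0256) and Pnpla3 by 0.25 (SE 0.075, adjusted p = 0.0167). Among these, the call of Abhd5 ended without the 2 h or the 48 h replicate 1 (0.192 and 0.163), and that of Pnpla3 without the 2 h replicate 1 or the 48 h replicate 2. That of Mgll ended without the 2 h replicate 1 or 3 or the 48 h replicate 2 or 3 (-0.54, -0.394, -0.428 and -0.455). The mean of 24 h and 48 h against that of 12 h and 36 h, a check for alternation between times 12 h apart, gave 0 of 8 by limma (2.29% of all genes), with 3 at an unadjusted p below 0.05. Mgll was lowest there, at -0.35 ± 0.12 (adjusted p = 0.134). A steady rise or fall over these times also gives a difference, so the contrast cannot tell alternation from drift.

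Across the 9 group means, Pnpla2 followed Lipe (Pearson r = 0.88) and Prkar2b (0.86), and Pnpla3 ran opposite to Pnpla2 (-0.84). Abhd5 and Prkar2b correlated at 0.82, and G0s2 and Pde3b at 0.18. These values describe 9 points that share arrays and treatment. Of the 4 members whose group means spanned at least 0.5, each was set against 3101 other genes that passed the F-test and also spanned at least 0.5. The highest r among so many genes over 9 means is a description and carries little weight. Pnpla3 was most like Trp63, a p53 family factor, and the retinoic acid receptor Rara (r = 0.988 for both), then the collagen receptor Ddr1 (0.987). Pde3b was most like Cnot7, a deadenylase subunit (0.989), Atp11b, a lipid flippase (0.978), and Zup1 (0.97). Prkar2b was most like Mocs2 (0.978), Uba3 (0.975) and Sucla2 (0.969), and Mgll like Septin9 (0.905), Tubb4b (0.897) and Pdcd11 (0.893).

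The genes around the core enzymes were counted at 6 h, 24 h and 48 h, when 8.39%, 10.1% and 12.6% of all genes were called higher and 8.18%, 10.5% and 11.4% lower. Centring each array on its median turned the counts over all genes from 1575 higher and 1536 lower to 2877 and 883 (6 h), from 1901 and 1978 to 3127 and 1313 (24 h), and from 2372 and 2143 to 3167 and 1642 (48 h). Directions below are therefore also given gene by gene, and the counts are those before centring. At 6 h, for example, centring turned 2 higher and 1 lower into 3 and 0 for the receptors and G proteins. It did the same for cAMP synthesis and breakdown. It gave 6 and 0 for the hydrolases (5 and 1 before) and 5 and 0 for the droplet partners (4 and 1). The list genes chosen by the naming rule had the smallest F-test p-values, so they do not speak for the counts. All 134 called changes of these genes kept their direction under centring and under a further quantile normalization. Of these calls, 126 and 131 also held, and the exceptions were Gnai2, Gnai3, Cav1 and Dgat2 at 1 to 4 times each under centring, and Pde4d, Prkar2a and Pkig at 1 time each under quantile normalization.

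The list of other lipid hydrolases ran beyond triglyceride lipases, with Pnpla6, Pnpla7, Pnpla8 and Faah among them, and more of it was called higher late in the course. Of 16 measured, 5 were higher and 1 lower at 6 h, 8 and 1 at 24 h, and 9 and 1 at 48 h, with a median change of 0.31 at 48 h against 0.013 over all genes. Lipa, the lysosomal acid lipase, rose by 0.36 at 6 h and 1.01 at 48 h, each ± 0.081 (adjusted p = 0.00206 and 7.86e-10). The carboxylesterases Ces1f and Ces1d, which hydrolyse triglyceride in fat and liver, rose by 0.82 ± 0.067 and 0.59 ± 0.072 at 48 h (adjusted p = 1.09e-09 and 7.92e-07), although their probes may read each other's close paralogs. Ddhd2, a phospholipase and triglyceride lipase, rose by 0.45 ± 0.067 at 48 h (adjusted p = 1.28e-05). These 4 were named for the smallest F-test p of the list, so being called was favoured by that choice. None had an adjusted p at or above 0.05 at 24 h or 48 h. Of all 16, 7 were not called at 24 h and 6 at 48 h. Among the members, which were not chosen that way, Lipe and Mgll were not called at 48 h. Pnpla2 was called then under some alternatives alone. The difference between the 4 enzymes and the members was not tested.

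Among 11 partners of the lipases on the droplet, 4 were higher and 1 lower at 6 h and 24 h, and 3 and 1 at 48 h (median 0.046). Hilpda, a droplet protein that also inhibits ATGL, rose by 0.54, 1.29 and 1.43 (each ± 0.093) at 6, 24 and 48 h, with adjusted p-values of 0.00016, 2.21e-10 and 2.37e-11. Hilpda was thus higher at 48 h, while G0s2, another ATGL inhibitor, was not called then. The droplet coat genes Plin4 and Plin2 rose by 0.47 ± 0.063 and 0.34 ± 0.074 at 48 h (adjusted p = 2.72e-06 and 0.00115). Cav1, the caveolar coat protein, fell by 0.40 (SE 0.06, adjusted p = 1.28e-05).

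**Figure D4:**
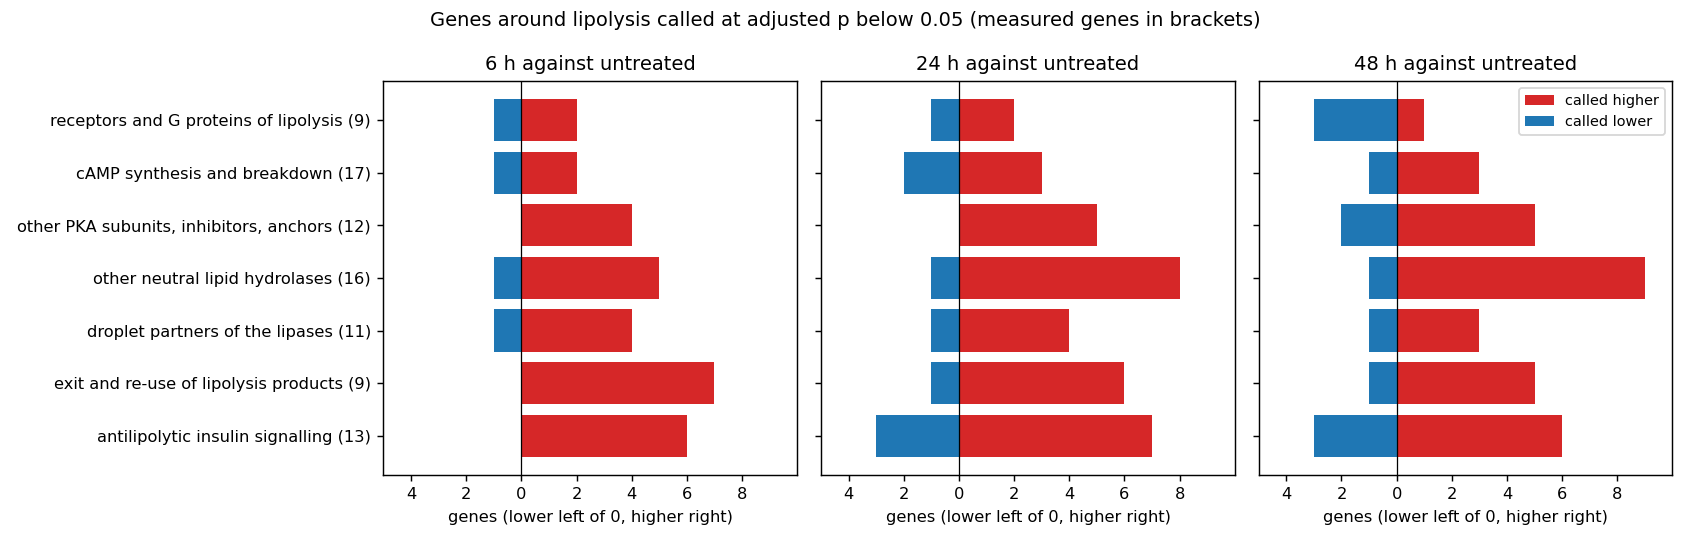
Number of genes called higher (right of 0) and lower (left of 0) at 6 h, 24 h and 48 h against untreated in 7 lists of genes around lipolysis, with the number measured in brackets. The hydrolase list grows from 5 higher genes at 6 h to 9 at 48 h, and the list of receptors and G proteins goes from 2 higher and 1 lower to 1 higher and 3 lower. Counts are those before centring, which moved some of them.

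Upstream of the kinase, 9 of 14 receptors and G proteins were measured. At 6 h 2 were higher and 1 lower, and at 48 h 1 was higher and 3 lower. Hcar2, the Gi-coupled receptor for hydroxybutyrate and niacin that restrains lipolysis, rose by 0.91 at 6 h and 0.75 at 48 h, each ± 0.075 (adjusted p = 7.06e-09 and 3.66e-08). Hcar1, the lactate receptor of the same family, rose by 0.44 ± 0.086 at 6 h (adjusted p = 0.000672) and fell by 0.36 at 48 h (SE 0.086, adjusted p = 0.00279). These neighbouring receptors are close in sequence, so their probes may share signal. The Gi subunit genes Gnai3 and Gnai2 fell by 0.36 and 0.20 at 48 h (adjusted p = 0.00115 and 0.0157), and centring ended the Gnai2 call.

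Of 17 measured genes of cAMP synthesis and breakdown, 2 were higher and 1 lower at 6 h, 3 and 2 at 24 h, and 3 and 1 at 48 h. With dim genes left out or with array weights, the 3 calls at 6 h numbered 5 and 6. The adenylyl cyclase genes Adcy5 and Adcy9, which make cAMP, rose by 0.72 ± 0.095 and 0.50 ± 0.075 at 48 h (adjusted p = 2.5e-06 and 1.5e-05). Pde4b, a cAMP phosphodiesterase outside the insulin arm, fell by 0.61 at 2 h and by 0.42 at 48 h (SE 0.10, adjusted p = 0.000268 and 0.00317). Pde4d fell by 0.38 at 2 h (adjusted p = 0.00973), and its 48 h difference, 0.14, did not pass (adjusted p = 0.316). Pde3b, of the core group, was the phosphodiesterase described above as higher from 24 h.

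Of 12 other subunits, inhibitors and anchors of protein kinase A, 4 were higher and none lower at 6 h, 5 and none at 24 h, and 5 and 2 at 48 h (median 0.15). Akap1, which anchors the kinase to mitochondria and droplets, rose by 0.70 at 6 h and 0.57 at 48 h, each ± 0.067 (adjusted p = 7.52e-08 and 3.88e-07). Prkar2a, the RIIα sister of Prkar2b, rose by 0.40 ± 0.067 at 6 h (adjusted p = 0.000116) and was still higher at 48 h, by 0.26 ± 0.067 (adjusted p = 0.00441), when Prkar2b was not called. The anchor Akap7 rose by 0.43 ± 0.08 at 48 h (adjusted p = 0.000218), and the kinase inhibitor gene Pkig by 0.24 ± 0.079 (adjusted p = 0.0262), a call lost under quantile normalization.

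Downstream, 7 of 9 measured genes for the exit and re-use of fatty acids and glycerol were higher at 6 h and none lower, and 5 were higher and 1 lower at 48 h (median 0.17). Aqp7, the channel that lets glycerol leave the fat cell, rose by 0.74 at 6 h and 0.61 at 48 h, each ± 0.074 (adjusted p = 1.71e-07 and 7.22e-07). Pck1, which makes new glycerol phosphate for re-esterification, rose by 2.03 ± 0.11 at 48 h (adjusted p = 2.26e-12), and the fatty acid binding protein gene Fabp5 by 0.39 ± 0.061 (adjusted p = 2.56e-05). Dgat2, which adds the last fatty acid to triglyceride, fell by 0.54 (SE 0.062, adjusted p = 3.83e-07).

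The list named for antilipolytic insulin signalling had 6 of 13 measured genes higher and none lower at 6 h (6 and 2 under quantile normalization). At 48 h, 6 were higher and 3 lower (median 0.18). Irs2, an insulin receptor substrate, rose by 0.72 at 2 h and 0.27 at 48 h, each ± 0.077 (adjusted p = 5.75e-07 and 0.0123). Pik3r1, the regulatory subunit of phosphoinositide 3-kinase, fell by 0.86 at 48 h (SE 0.076, adjusted p = 4.85e-09), while the catalytic subunit gene Pik3cb rose by 0.37 ± 0.084 (adjusted p = 0.00155). Crtc2, a coactivator of cAMP-responsive genes, rose by 0.42 ± 0.065 (adjusted p = 1.89e-05). Since the list mixes insulin signalling genes with genes of the cAMP response, its counts give no direction for antilipolytic signalling.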

How the data were processed

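The data were 27 Affymetrix Mouse Gene 1.1 ST arrays. The authors deposited log2 intensities per probe set, and the submitters' processing notes name Partek and RMA without versions or roles. Settings and genome build are not given in the sources used here. Of 28815 probe sets, 21153 carried 1 symbol, 1867 several and 5795 none; names came from the platform annotation, and 21123 were matched to RefSeq by Entrez identifier. The brightest probe set was kept per gene, giving 18781 genes with no filter on dim ones.

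The limma package (3.58.1, under R 4.3.3) fitted a mean per group to all arrays with lmFit and eBayes, without covariates, with Benjamini-Hochberg adjustment over all genes per comparison, two-sided. The fit was tested on simulated data. Tables and plots used Python 3.11.15, pandas 2.3.3, numpy 2.4.6 and matplotlib 3.10.9. Members and lists were chosen with earlier results of these data known. Named genes were all members, up to 4 per list with the smallest F-test p, the 3 most alike per member and the markers. The number of arrays limits the precision. Alternatives were the replicate block, dim genes left out, averaged probe sets, centring, quantile normalization, trended variance, array weights, fewer arrays, a 30 min baseline and single arrays or replicate numbers left out.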

Additional observations from a re-analysis of the deposited data

How the results depend on the processing

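Of 64 changes of the 8 genes against untreated, 25 were called. Under every alternative run, 9 of these calls held (Pnpla3 from 6 h to 48 h, G0s2 at 6 h and 12 h, Prkar2b at 12 h and 24 h), 16 were lost under at least 1, and 11 others were gained under at least 1. In 0 cases did a called change reverse. Same-numbered arrays did not deviate together (correlations of -0.445 to 0.105 with the untreated arrays). Between treated groups they ran from -0.398 to 0.142, and in 0 of 28 pairs of groups were all 3 above 0.1, so the numbers were not used to pair arrays. With the replicate number as a block, 0 genes were called at 2 h (1 in the report), 4 at 6 h (5), 6 at 24 h (7) and 0 from 24 h to 48 h (1), and no other count moved. For the other settings only the larger moves of the counts are listed. Counts of called genes moved to 0 at 2 h and 7 at 36 h with centring. They moved to 0 at 2 h and 2 at 36 h with only the 6 arrays compared, and to 7 at 36 h with array weights. Among smaller moves, centring also called Mgll and Abhd5 at 6 h, Lipe at 12 h, Pnpla2 at 48 h and Prkar2b from 2 h to 6 h. With only the 6 arrays compared, Pnpla2 lost its 6 h and 12 h calls and Lipe its 6 h and 24 h calls, while Mgll was called at 6 h. From 2 h to 6 h, 4 were called without dim genes. From 6 h to 24 h, 1 was called without dim genes, with quantile normalization, trended variance or array weights. From 24 h to 48 h, 2 were called without dim genes, with trended variance or array weights, and 0 with quantile normalization. With arrays left out, the counts ran from 0 to 1 at 2 h, 2 to 6 at 6 h, 3 to 6 at 12 h, 3 to 7 at 24 h, 1 to 4 at 36 h, 1 to 3 at 48 h, 0 to 3 from 2 h to 6 h, 0 to 1 from 6 h to 24 h, 0 from 24 h to 48 h, 1 to 4 from 2 h to 48 h, and 4 to 7 over the course. The causes were not tested. The other probe set of Lipe gave no called change.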
